A study of Caenorhabditis elegans with 2 samples.

Results

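The regions described here are 335 peaks of EGL-5 ChIP-seq signal that lay inside autosomal introns of Caenorhabditis elegans. They were chosen by position alone. The summit of each peak was on chromosome I, II, III, IV or V, inside a protein-coding gene, outside every exon of a protein-coding transcript, and outside every promoter window, a window that covered 1000 bp before and 200 bp after each annotated transcript start. The 335 were 17.0% of the 1967 autosomal peaks that passed the authors' test of reproducibility, the irreproducible discovery rate (IDR), and 13.0% of all 2570 such peaks. They were set beside 1126 autosomal promoter peaks, 480 autosomal intergenic peaks, 26 autosomal exon peaks and 105 intronic peaks of chromosome X.

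The study had 1 group of 2 biological replicates, both of whole worms at larval stage L3 with males and females pooled. The worms were of strain OP54, genotype unc-119(ed3) III; wgIs54, in which the integrated transgene wgIs54 supplies EGL-5 fused to eGFP and no egl-5 allele is listed. Every worm therefore carried the unc-119 mutation and the transgene, and no untagged or untransformed worms formed a group. The labels give neither the number of transgene copies nor the cells that held the fusion protein, and signal from a few cells cannot be told apart from weak signal in many. No member lay within 20 kb of egl-5, where 17 IDR peaks fell and where reads from the transgene and the native locus cannot be told apart.

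EGL-5 is the Abdominal-B-type Hox protein of the worm, a homeodomain transcription factor that patterns the tail, including the rectal epithelium, male tail lineages and some posterior neurons. Homeodomain proteins recognise short AT-rich sequences that are common by chance, and Hox proteins often bind DNA together with partner homeodomain proteins. In animals generally, transcription factors bind introns as well as promoters, since introns can hold enhancers and internal start sites.

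Sequence within 50 bp of the summit is shown for 11 members, read from the RefSeq copy of WBcel235 (ce11), plus strand, 5′ to 3′. Capitals mark 3 motifs on either strand, namely the GAGA repeat (GAGAGA or TCTCTC), the posterior Hox hexamer (TTTATG or CATAAA) and a heptamer (GCGTCTC or GAGACGC). The first 3 windows are the highest-scoring ones with a GAGA repeat, the next 4 those with a Hox hexamer, and the 3 after them those with the heptamer, all from chromosomes II to V and with no window shown more than once. The last is the member in mab-5, the only gene with one in the list of Hox genes and cofactors.
W06H8.6, chrV:6224643-6224743: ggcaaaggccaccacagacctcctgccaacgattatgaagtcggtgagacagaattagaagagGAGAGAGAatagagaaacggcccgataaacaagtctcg
mnk-1, chrII:10552101-10552201: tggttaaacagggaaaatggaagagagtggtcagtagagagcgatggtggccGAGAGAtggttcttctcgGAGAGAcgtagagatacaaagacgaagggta
vhp-1, chrII:5330260-5330360: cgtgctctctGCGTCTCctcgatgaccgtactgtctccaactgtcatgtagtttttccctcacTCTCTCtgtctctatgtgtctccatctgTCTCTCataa
hlh-30, chrIV:4022523-4022623: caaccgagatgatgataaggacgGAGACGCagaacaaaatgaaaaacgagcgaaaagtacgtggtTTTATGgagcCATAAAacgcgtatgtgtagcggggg
dsh-1, chrII:5223038-5223138: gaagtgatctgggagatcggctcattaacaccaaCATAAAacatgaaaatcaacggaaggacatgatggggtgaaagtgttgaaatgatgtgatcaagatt
M117.1, chrIV:11815118-11815218: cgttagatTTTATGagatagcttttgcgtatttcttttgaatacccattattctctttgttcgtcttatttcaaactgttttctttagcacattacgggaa
Y54G2A.73, chrIV:3002987-3003087: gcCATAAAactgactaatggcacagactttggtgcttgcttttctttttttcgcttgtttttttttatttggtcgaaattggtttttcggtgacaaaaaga
Y111B2A.12, chrIII:12612615-12612715: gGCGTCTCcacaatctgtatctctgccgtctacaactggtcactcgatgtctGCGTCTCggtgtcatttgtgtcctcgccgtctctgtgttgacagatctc
ccch-1, chrV:11535613-11535713: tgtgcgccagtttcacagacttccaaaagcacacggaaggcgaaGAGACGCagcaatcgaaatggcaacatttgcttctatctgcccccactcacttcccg
mdt-27, chrV:9212654-9212754: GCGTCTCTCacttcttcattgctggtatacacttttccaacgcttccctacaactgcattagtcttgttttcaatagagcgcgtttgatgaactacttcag
mab-5, chrIII:7778706-7778806: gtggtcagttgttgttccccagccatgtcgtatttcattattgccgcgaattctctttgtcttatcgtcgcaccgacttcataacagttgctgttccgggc

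The GAGA repeat, a sequence that the GAGA factor binds in flies, was the most frequent of 13 motifs searched at the summits. It occurred within 50 bp of the summit in 93 of 335 members (27.8%, 95% exact binomial interval 23.0 to 32.9%), against 34 (10.1%) of flanks of the same length centred 250 bp away, a 2.74-fold difference (exact McNemar test, two-sided, adjusted p = 2.36e-08 over 52 tests of 13 motifs in 4 peak classes). Among all IDR peaks 26.8% had it, so the share in members was near that of the whole list, and 37.9% of autosomal intergenic peaks and 24.7% of autosomal promoter peaks had it. Of 224401 windows of 101 bp tiled over intron sequence outside promoter windows and exons, 4.0% held it. The repeats were short, with a median longest run of 6 bases and a maximum of 16 among the 93 members. The member in W06H8.6, shown above, has a run of 8 bases, and mnk-1, a kinase that acts downstream of MAP kinases, has a pair of separate matches.

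The heptamer was rarer and had the larger contrast between summit and flank. No binding factor is named for it here and how it was picked is not given, so its p-values serve as a description only. It occurred at 33 member summits (9.85%, interval 6.88 to 13.6%) against 5 flanks (1.49%), a 6.60-fold difference (exact McNemar test, adjusted p = 2.21e-05), and in 0.742% of tiled intron windows. With intronic peaks from the 2570 highest of replicate 1 the difference was 6.2-fold (exact McNemar test, adjusted p = 6.1e-05), and from those of replicate 2 it was 14-fold (adjusted p = 5.64e-06). For the 131 members among the 1285 highest-scoring IDR peaks it was 16-fold (exact McNemar test, adjusted p = 0.00102). The 162 members supported in each replicate, meaning that they overlap one of the 2570 highest of both, also gave 16-fold (exact McNemar test, adjusted p = 0.0013). With only 5 flank matches in the full set, and fewer members in these 2 sets, the size of these ratios rests on few flanks. All IDR peaks had it at 9.42%, autosomal promoter peaks at 11.1% and X intronic peaks at 1.90% (2 of 105). The highest-scoring member of all, in Y111B2A.12, holds it at 2 places, and the members in vhp-1, a MAP kinase phosphatase, and mdt-27, a Mediator subunit, hold both it and a GAGA repeat. In 13 members the heptamer and the GAGA repeat occurred together, and in 7 of these the matches shared bases, as in mdt-27.

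The posterior Hox hexamer, of the kind bound by Abdominal-B-type proteins in flies and vertebrates, occurred at 50 member summits (14.9%, interval 11.3 to 19.2%). Of the flanks, 25 had it (7.46%), a 2.00-fold difference (exact McNemar test, adjusted p = 0.00724). Among all IDR peaks the share was 11.3%, and among tiled intron windows it was 9.30%. Autosomal promoter summits had it in 7.28% (interval 5.83 to 8.96%), against 7.19% of their flanks (exact McNemar test, adjusted p = 1). Autosomal intergenic summits had it in 15.2%, against 10.2% of flanks (1.49-fold, exact McNemar test, adjusted p = 0.0535). X intronic summits had it in 21 of 105, against 11 flanks (1.91-fold, exact McNemar test, adjusted p = 0.135). Differences between peak classes were not tested. The contrast did not pass the threshold in replicate 1 taken alone. With intronic peaks drawn from the 2570 highest of replicate 1 it was 1.46-fold (exact McNemar test, adjusted p = 0.179), and from those of replicate 2 it was 2.70-fold (adjusted p = 0.000144). For the 131 members among the 1285 highest-scoring IDR peaks it was 1.73-fold (exact McNemar test, adjusted p = 0.381). The motif was found in members of vab-1, the worm Eph receptor, dsh-1, a Dishevelled protein of Wnt signalling, and hlh-30, the worm TFEB, whose window holds 2 hexamers and also the heptamer. Of all members, 6 held 2 or more hexamers, 8 held a hexamer and a GAGA repeat, and 1, in hlh-30, held a hexamer and the heptamer.

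**Figure D1:**
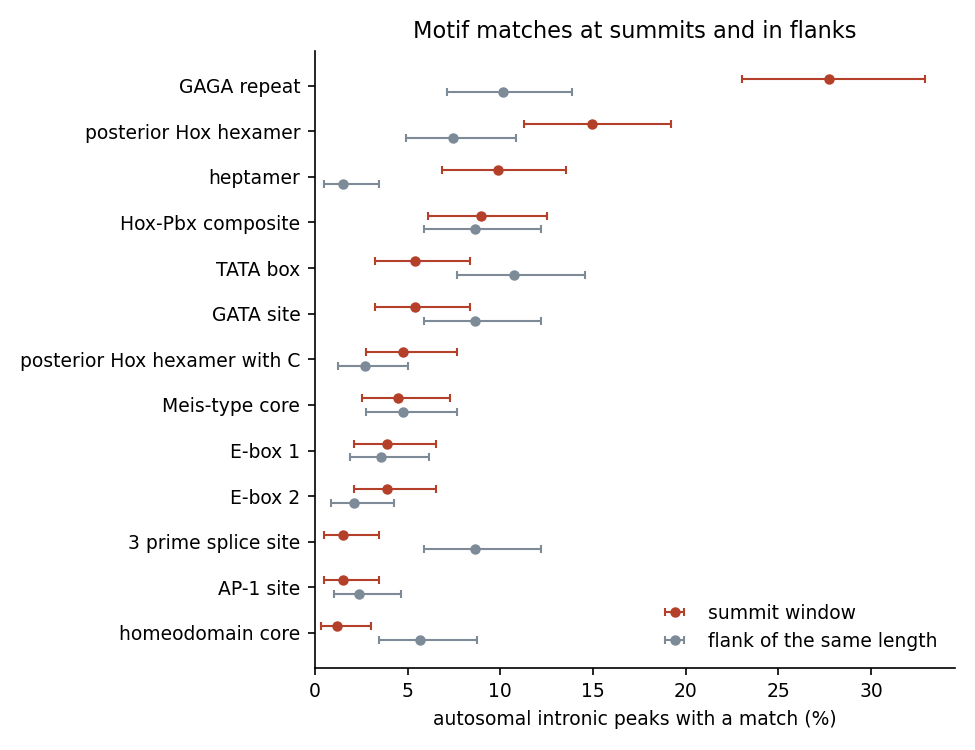
Share of the 335 autosomal intronic peaks (x axis, percent) with a match to each of 13 motifs within 50 bp of the summit (red, upper point) and in a flank of the same length centred 250 bp away (grey, lower point), with 95% exact binomial intervals. The GAGA repeat (27.8% against 10.1%), the posterior Hox hexamer (14.9% against 7.46%) and the heptamer (9.85% against 1.49%) lie to the right at summits, and the splice-site sequence and the homeodomain core lie to the left.

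None of the other homeodomain sequences searched passed the threshold with more matches at the summits. The homeodomain core TAATTA was at 4 summits against 19 flanks (exact McNemar test, adjusted p = 0.00795), and the Hox-Pbx composite TGATNNAT was at 30 summits against 29 flanks (adjusted p = 1). By the same exact test, the variant hexamer TTTACG was at 16 summits against 9 flanks (adjusted p = 0.341), and the Meis-type core TGACAG at 15 against 16 (adjusted p = 1). The splice-acceptor sequence TTTTCAG fell to 5 summits, against 29 flanks (exact McNemar test, adjusted p = 7.72e-05), and the TATA box TATAAA to 18 summits, against 36 flanks (adjusted p = 0.0434). For the splice-acceptor sequence the counts were 6 summits against 37 flanks in autosomal intergenic peaks (exact McNemar test, adjusted p = 9.45e-06) and 36 against 159 in autosomal promoter peaks (adjusted p = 5.98e-20). Of the members' flanks, 49 of 335 were centred in an exon (14.6%), and the part of this in the contrasts was not tested. The contrast of the homeodomain core missed the threshold in replicate 2 alone (0.364-fold, exact McNemar test, adjusted p = 0.228), and that of the TATA box in replicate 1 alone (0.725-fold, adjusted p = 0.348) and replicate 2 alone (0.536-fold, adjusted p = 0.137). The GATA site AGATAA, the AP-1 site TGACTCA and the E-boxes CAGCTG and CACGTG did not pass the threshold. Base composition also differed between summits and flanks. The median GC content was 43.6% at member summits, 36.6% in their flanks and 32.0% over the intron sequence, and its part in the motif contrasts was not tested.

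The matches lay near the summits, over different widths. In bins of 25 bp, GAGA repeats occurred in 7.16% to 9.55% of members in each of the 4 bins within 50 bp of the summit. They reached 11.0% in the bin from 75 to 50 bp before it on the plus strand. The first and last bins, from 275 to 300 bp out, had 1.49% and 1.19%, and the bins next to them 4.18% and 2.39%. Hox hexamers were in 5.37% of members in the bin just after the summit. The heptamer was in 4.18% of members in the bin just before it. In all, 181 members had none of the 3 motifs in the window, among them the member in mab-5.

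**Figure D2:**
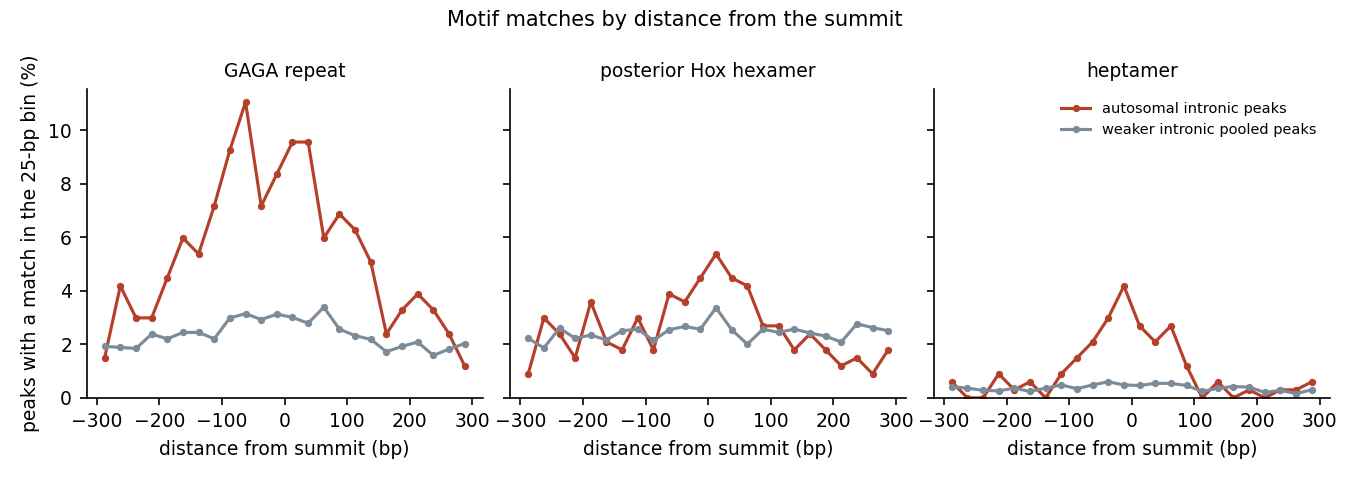
Share of peaks (y axis, percent) with a motif match whose middle lies in each 25-bp bin from 300 bp before to 300 bp after the summit (x axis), for the 335 autosomal intronic peaks (red) and 4993 weaker intronic peaks of the pooled list (grey). The red lines are highest near the summit, at 11.0% for the GAGA repeat in the bin from 75 to 50 bp before it, at 5.37% for the Hox hexamer in the bin just after it and at 4.18% for the heptamer in the bin just before it, and the grey lines are flatter.

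The 4993 weaker autosomal intronic peaks are those of the pooled list that did not pass IDR. That list was deposited as peaks and background, so they can include unbound sequence. They made up 24.6% of 20274 weaker autosomal peaks, against the 17.0% of members among autosomal IDR peaks. In them the hexamer was at 10.2% of summits against 9.23% of flanks, the GAGA repeat at 9.55% against 6.59%, and the heptamer at 1.98% against 0.941%.

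Scores of the members, which are the authors' own values per peak and have no replicate error, had a median below that of the IDR list. Their median was 38.4 (95% interval of the median 37.3 to 39.9, range 30.9 to 121), against 41.0 (40.4 to 41.4) for all IDR peaks. It was 43.2 for autosomal promoter peaks, 39.8 for autosomal intergenic peaks, 38.5 for autosomal exon peaks and 39.7 for X intronic peaks. These differences were not tested. Members, 13.0% of all IDR peaks, were 2 of the 50 highest-scoring (4.0%), 4 of the highest 100 (4.0%) and 131 of the highest 1285 (10.2%). On the deposited −log10 q-value, 201 members (60.0%) were at 3.54, the highest value among them, so q-values did not rank them.

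**Figure D3:**
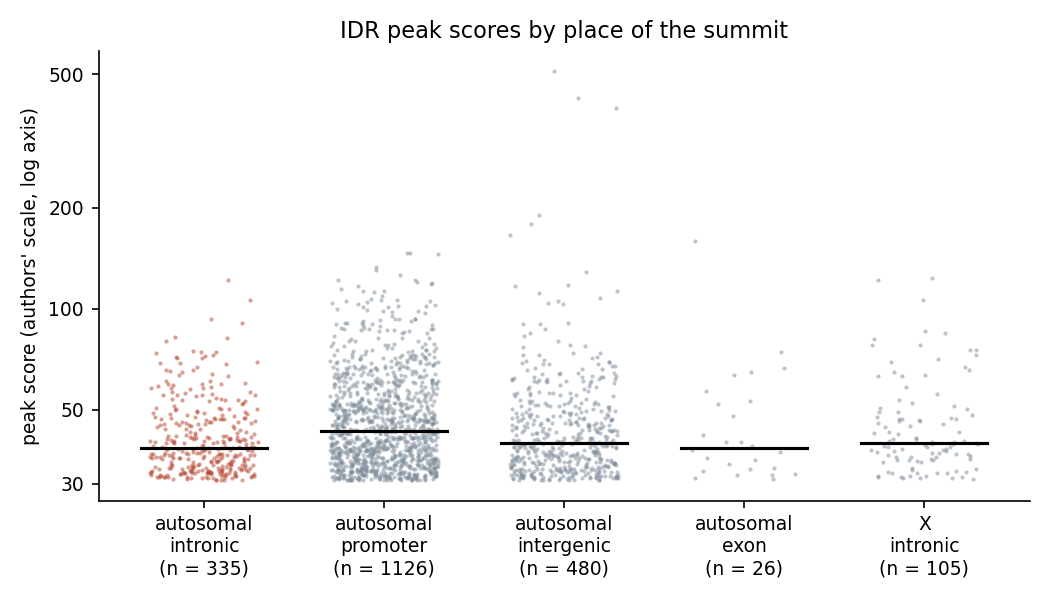
Score of each IDR peak (y axis, log scale, authors' units) by the place of its summit (x axis), 1 point per peak with the median as a black line. The autosomal intronic peaks (red, n = 335) span 30.9 to 121 with a median of 38.4, and the promoter peaks (n = 1126) have a median of 43.2.

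The member with the highest score was in intron 4 of 7 of Y111B2A.12 (peak at chrIII:12612483-12612846), at 121, rank 25 of the IDR list. It had scores of 50.2 in replicate 1 and 67.5 in replicate 2, and was among the 5 highest members in both. Next came the peak in intron 5 of W06H8.6 (chrV:6224511-6224874) at 106, with 52.4 in replicate 1 and 53.9 in replicate 2. The peak in intron 2 of mnk-1 scored 92.9, with 13.3 in replicate 1 and 85.8 in replicate 2, the highest value of any member there. That in intron 1 of vhp-1 scored 90.7, and those in ccch-1 and the Mediator subunit gene mdt-26 scored 82.0 and 81.8. In mpk-1, the ERK-type MAP kinase that acts downstream of Ras, a peak in the middle of the 8247-bp intron 1 scored 80.1. Members from rank 8 to rank 25 ran from 74.8 to 64.8. Their host genes were csnk-1, a casein kinase I gene, dhc-4, a dynein heavy chain gene, C48E7.6, sel-2, daf-5, mdt-27, psd-1, emb-4, nhr-19, K10D6.4, hmr-1, F32B5.7, sem-4, hlh-30, W05B5.1, pqn-41, saeg-1 and dsh-1. Among them daf-5 encodes a Ski/Sno-like regulator, psd-1 an enzyme that makes phosphatidylethanolamine, hmr-1 the classical cadherin and sem-4 a spalt-type zinc finger protein of neurons and mesoderm. The member in mab-5, the Hox gene next to egl-5 in the cluster, was far lower at 36.3, in intron 3 of 4.

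The replicates ranked the members differently. A peak was called supported where it overlapped, by 1 bp or more, one of the 2570 highest-scoring peaks of a replicate. In replicate 1, 237 members were supported (70.7%, against 70.3% of all IDR peaks), and in replicate 2, 245 (73.1%, against 80.7%). In both, 162 were supported (48.4%, interval 42.9 to 53.9%), against 53.3% of all IDR peaks and 55.7% of autosomal promoter peaks. A further 75 were supported in replicate 1 only, 83 in replicate 2 only and 15 in neither. Nearly every member overlapped some peak of the longer lists of 30000 peaks, 331 in replicate 1 and 335 in replicate 2. Over the 331 members in both lists, the scores had a Spearman rank correlation of 0.055, given as a description since members were kept on the pooled score, which narrows the range. The peak in nhr-19, a nuclear hormone receptor gene, scored 49.2 in replicate 1 and ranked 38 there, and scored 15.7 in replicate 2 and ranked 3968. That in mdt-27 went the other way, with 8.40 and rank 5360 in replicate 1 and 59.0 and rank 66 in replicate 2. The peaks in sem-4 and saeg-1 completed the 5 highest in replicate 1, at 40.9 and 39.5, and those in vhp-1 and ccch-1 the 5 highest in replicate 2, at 56.4 and 56.2.

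**Figure D4:**
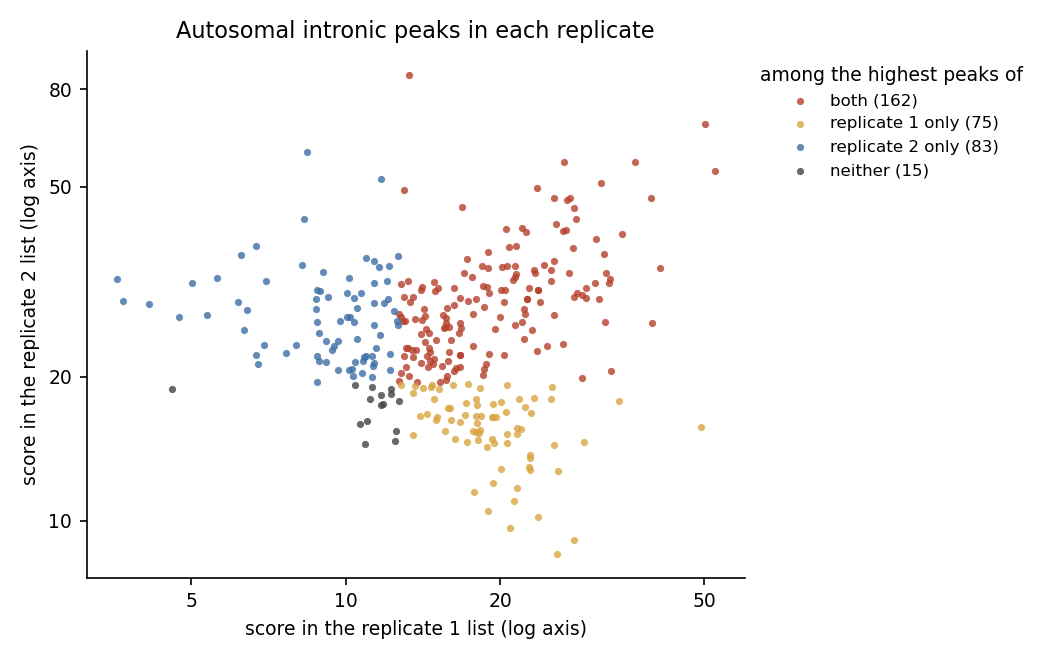
Score of each member in the replicate 1 list (x axis, log scale) and the replicate 2 list (y axis, log scale), for the 331 members that overlap a peak in both, coloured by whether the member overlaps one of the 2570 highest peaks of both replicates (162), replicate 1 only (75), replicate 2 only (83, of which 4 have no replicate 1 peak to plot) or neither (15). The points form no single line, and members high in 1 replicate and low in the other lie at the upper left and lower right.

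Members lay in long introns. All autosomal introns, taken from the longest transcript of each gene, had a median length of 65 bp. The intron around a member had a median length of 3483 bp, against 1471 bp for weaker intronic peaks. For both kinds of peak, intron length was read from the longest protein-coding transcript that had the summit in an intron. For 1 member no such transcript was found. Per Mb of intron sequence outside promoter windows and exons, members numbered 5.54 in introns under 1 kb (95% Poisson interval 4.27 to 7.06), 11.4 in those of 1 to 2 kb (8.54 to 14.99), 25.5 at 2 to 5 kb (20.5 to 31.4), 47.2 at 5 to 10 kb (37.3 to 59.0) and 62.0 at 10 kb or more (46.1 to 81.8). Weaker peaks followed the same order less steeply, at 168, 181, 290, 458 and 498 per Mb, so members were 3.19% of the pooled intronic peaks in the shortest class and 11.1% in the longest. Introns of 10 kb or more held 50 members, and the longest transcripts of the genes had 76 such introns. The intron sequence was counted in those longest transcripts only, so members placed in another transcript can lie outside it. Intervals here and on shares cover counting error only, and these differences were not tested.

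**Figure D5:**
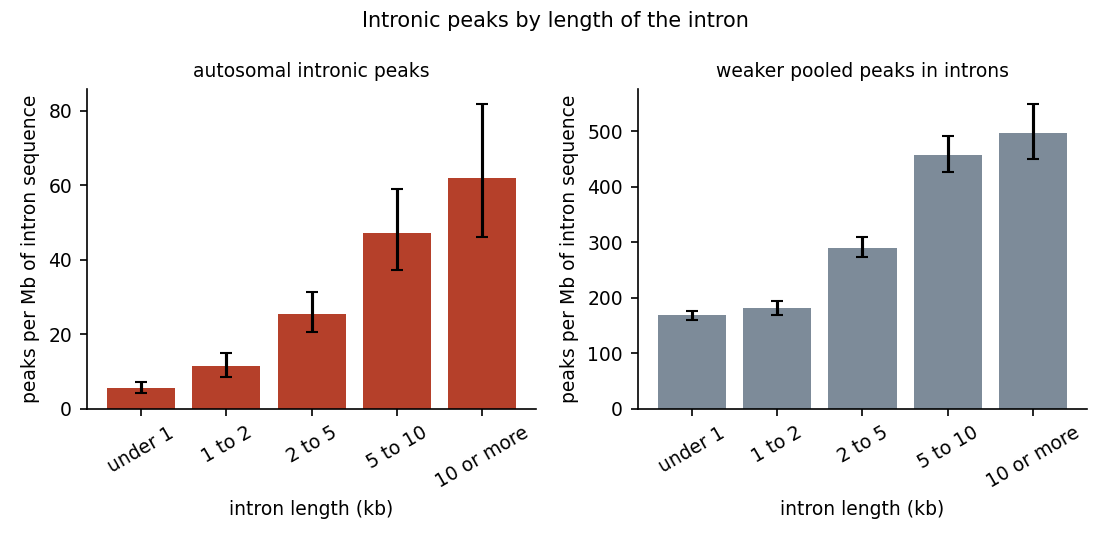
Peaks per Mb of intron sequence outside promoter windows and exons (y axis) by length of the intron (x axis, kb), for autosomal intronic peaks (left, red, n = 334) and weaker intronic peaks of the pooled list (right, grey, n = 4963), with 95% Poisson intervals and separate y scales. Members go from 5.54 per Mb under 1 kb to 62.0 at 10 kb or more, and weaker peaks from 168 to 498. Intron sequence was counted in the longest transcript of each gene.

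Intron 1 held 103 of 334 members (30.8%, interval 25.9 to 36.1%), intron 2 held 71 (21.3%) and later introns held 160 (47.9%). Over all pooled intronic peaks, 27.6% were in intron 1, so the members' share was close to that background. In the longest transcript of each gene, introns 1 had 19.7% of the intron sequence that could hold a member, and introns 2 had 16.2%. Within the intron, the middle stretch by length had 132 members (39.5%), the 5′ stretch of equal length 113 (33.8%) and the 3′ stretch 89 (26.6%), and the median distance to the nearest protein-coding exon was 773 bp. The median member lay 4217 bp from the first start of its host. Another annotated start of the same gene lay downstream of 206 members (61.5%), and for 58 members it was within 2000 bp. The promoter windows left out summits up to 1000 bp before a start, so the smallest such distance was 1003 bp. Host genes had a median of 3 annotated starts, against 1 for all autosomal genes with such intron sequence. No background share is given for these counts.

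The window edge set which peaks were counted as intronic. Just outside a window were members in F53E4.1 (1 bp beyond the edge, score 30.9) and in hlh-30 (3 bp, 53.3), and just inside were promoter peaks in daf-14 (2 bp, 39.8) and ell-1 (12 bp, 37.9). Of the members, 22 lay within 100 bp of an edge. Among promoter peaks, 159 of 1126 (14.1%) had summits in a gene body outside exons, since windows took precedence over introns.

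Host genes numbered 257, which is 1.73% of the 14851 autosomal protein-coding genes with intron sequence that could hold a member. They were long, with a median of 11310 bp against 1964 bp for all autosomal protein-coding genes. A single member was found in 202, and 55 had 2 or more, which together held 134 member-host pairs. ncl-1, which encodes a TRIM-NHL protein that limits nucleolar size, had 6 members over 12.045 kb, with scores from 32.7 to 44.8, and no promoter peak. T28B11.1 had 5, all in its 17091-bp intron 1, with scores of 50.7, 50.1, 49.7, 44.0 and 37.3. daf-5, hlh-30, sea-2 and zfp-1, the worm AF10 homologue, had 4 each. The 4 members of hlh-30 all lay in its 8295-bp intron 2, and those of sea-2 all in its 10355-bp intron 2. In zfp-1, 2 of the 4 summits were close enough to overlap the same replicate peaks, with 23.7 in replicate 1 and 30.4 in replicate 2 for both, so they are not separate measurements. The 2 members of abts-1 and the 2 of spe-15 likewise shared bases and a replicate peak, and with such members counted once 53 hosts had 2 or more. Y111B2A.12, vhp-1, K10D6.4, pqn-41, lsy-22, the forkhead gene fkh-7, mig-10, ric-7 and unc-83 had 3 each. In all, 109 members (32.5%) lay within 5000 bp of another member. No background share is given for this count or for the 55 hosts, and the part of gene length in them was not tested.

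A promoter peak was present in 61 of the 257 host genes (23.7%, interval 18.7 to 29.4%), against 8.30% of all autosomal genes with such intron sequence and 9.16% of those with 1000 bp or more of it. Host genes had a median of 3 annotated starts, against 1 for all these genes, and more starts give more promoter windows, so the part of start number in this difference was not tested. In zfp-1 the highest promoter peak scored 60.6, above its highest intronic peak at 48.0, and in fkh-7 they were 84.5 and 53.2. In vhp-1 the order was the reverse, with the intronic peak at 90.7 and the promoter peak at 42.4.

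Among 24 gene lists drawn up by pathway or gene family, 36 different genes had a member. Axon guidance and cell adhesion had the most, with 12 of 24 genes that had intron sequence able to hold a member (interval of the share 29.1 to 70.9%), against 1.73% of all such autosomal genes. The list's genes are long, with a median of 8092 bp of such sequence against 648 bp for all genes, and per Mb of it they had 70.2 members (interval 41.6 to 111), against 14.5 for all genes. No set was tested, and intron length, which moves with member density as given above, was not adjusted for. The highest was in vab-1 at 57.6. mig-10, a lamellipodin-type regulator of the growth cone, had 3 members at up to 45.2, and unc-52, the basement membrane perlecan, ptp-3, rig-6 and unc-73 had 2 each. unc-40 and unc-5, receptors of the netrin UNC-6, had 1 each at 32.3 and 32.7, and unc-34, unc-33, unc-76 and unc-53 had 1 each. Among peaks supported in each replicate, 5 genes of the list had a member, and among the 1285 highest-scoring IDR peaks 3 had one.

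Smaller numbers of genes were found in other lists, set against 1.73% of all autosomal genes with intron sequence able to hold a member. Per Mb of such sequence, all genes had 14.5 members and the G protein list 61.8 (interval 24.9 to 127). Neuronal transcription factors had 73.5 (23.9 to 172) and the rectal list 103 (12.5 to 373). The other lists of this paragraph had from 9.11 in muscle genes to 48.7 in chromatin genes. Many of these values rest on few members, and none was tested. Of 16 G protein signalling genes, 5 had a member (pkc-1, acy-1, kin-1, pde-4 and egl-10), with scores no higher than 37.4, and 1 had a member supported in each replicate. Of 19 genes of synaptic vesicle release, 3 had one (unc-41, snt-1 and cla-1), with the highest at 44.5. With the peaks of replicate 1 alone 1 gene of that list had a member, with those of replicate 2 alone 4, and among peaks supported in each replicate 1. The Wnt list had 2 of 25, dsh-1 at 64.8 and the Ror-type receptor gene cam-1 at 36.9, and 1 gene with the peaks of replicate 2 alone or with supported peaks. The insulin and nutrient list had 2 of 12, the insulin receptor gene daf-2 (40.3 and 32.4) and the FOXO gene daf-16 (39.8 and 38.8). For the higher peak of daf-16 replicate 1 had no overlapping peak at all, and neither gene's peaks were supported in both replicates. Among neuronal transcription factors 3 of 23 had a member, sem-4 at 68.6, the MTA-like gene egl-27 at 61.0 and egl-44 at 32.1. egl-27 also made up the 1 of 7 genes of the rectal and hindgut list and the 1 of 23 of the chromatin list. Single genes with a member were lin-42 of 7 heterochronic genes, sel-8 of 9 Notch genes, mpk-1 of 9 vulval Ras genes, and unc-54, a body wall myosin heavy chain, of 21 muscle genes. The Hox list had mab-5 as 1 of 8.

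Several lists held few or no members, set against 1.73% of all autosomal genes with intron sequence able to hold one. For every list in this paragraph but 1, the exact binomial interval of the share covered that value. The exception was the str and srh chemoreceptor families, with an upper bound of 1.41%, and their interval per Mb covered the value for all genes. These lists were therefore not set apart from the share over all genes by these counts. Nuclear hormone receptor genes had 2 of 242 (nhr-19 and nhr-46), col collagens had 1 of 95 (col-99) and the str and srh chemoreceptor families had 1 of 393 (srh-2). Per Mb of such sequence, the receptor genes had 7.02 members (interval 0.850 to 25.4) and the chemoreceptor families 4.05 (0.103 to 22.6). The col collagens had 50.25 (6.09 to 181.5), against 14.5 for all genes. No member was found in 45 ceh homeobox genes, for which the upper bound of the exact binomial interval was 7.87%. Nor was one found in 32 ribosomal protein genes, the 15 ion channel genes drawn up, 15 Rab genes or 14 RNA-binding and splicing genes. The ribosomal protein and Rab genes held only 3.88 kb and 18.0 kb of such sequence. The list of 9 Sma/Mab TGF-beta pathway genes had none either. daf-5, with 4 members, was in none of the lists. Ion channel genes outside the 15 drawn up did have members, among them the potassium channel genes kvs-5 at 63.3 and twk-13 at 54.9. Histone genes had no intron sequence able to hold a member.

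A gene of a non-coding class was annotated within 500 bp of 82 member summits (24.5%, interval 19.97 to 29.4%). Among all IDR peaks 23.6% had such a gene, among weaker intronic peaks 12.6%, among X intronic peaks 37.1% and among autosomal intergenic peaks 25.6%. The nearest was of the general ncRNA class for 53 members, a snoRNA for 11, a tRNA for 9, an antisense RNA for 5, a snRNA for 2, and a lincRNA and a miRNA for 1 each. In 32 members the summit lay inside the non-coding gene. The vhp-1 peak lay within the antisense gene anr-54, and the dhc-4 peak lay 21 bp from a snRNA gene. The miRNA was mir-90, 422 bp from a member in K01F9.2 with a score of 48.3. With intronic peaks drawn from the 2570 highest of replicate 1 the share was 31.6%, and from those of replicate 2 it was 22.1%.

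Chromosomes differed little in the share of their IDR peaks that were intronic, from 14.6% on IV (54 of 369) to 18.9% on V (67 of 354), with overlapping intervals (11.2 to 18.7% and 14.98 to 23.4%). Chromosomes II and III held 74 members each, I held 66. Per Mb of intron sequence able to hold one, the autosomes had 14.8 members, from 11.8 on IV to 19.5 on II. Introns of X had 22.9 per Mb, autosomal promoter windows 50.4 and autosomal intergenic sequence 24.7.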

How the data were processed

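The authors deposited narrowPeak lists for each replicate, for both pooled, and after IDR, per the file headers and the deposited notes; which aligner, peak caller and IDR cutoff were used is not given in the sources used here. A deposited list holds a score per peak on the authors' own scale and a −log10 q-value. Scores were compared within a list only. No read counts are in the lists, so depth is unknown and no interval for a peak's score can be given.

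Summits in the ce11 lists were placed on Ensembl release 115 models of WBcel235, with promoter windows first, then exons, introns and intergenic sequence. Chromosome names and lengths were checked against the RefSeq assembly, from which sequence was read. Members and lists were chosen with earlier results of these data known. The genes named are hosts of the 25 highest-scoring members, the 10 hosts with most members (ties kept), every list gene with a member, and hosts of the 5 members highest in each replicate. Other genes named were chosen after their values were seen, for windows shown, the window edge, neighbouring non-coding genes, members that share bases or channel genes outside the list. Of the list names, 3 were not found in the annotation. The result of 1 list is not reported here.

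Motifs on either strand were compared between summit window and 1 flank per peak, on alternating sides, by exact McNemar tests with Benjamini-Hochberg adjustment over 52 tests. Regions are the units of these tests, not replicates of a condition. Python 3.11.15, scipy 1.17.1 and pandas 2.3.3 were used, and the motif test and the placing of summits were tested on simulated data. Alternatives changed the promoter window, exon set, peak set, replicate, overlap, distance and flank.

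Replicate numbers differ between builds. The ce11 list of replicate 1 differed from ce10 replicate 1 by a median of 39.3% in score at equal rank, and from ce10 replicate 2 by 0.218%. Numbers here follow ce11, and which sample each belongs to could not be settled.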

Additional observations from a re-analysis of the deposited data

How the results depend on the processing

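The share of members among autosomal peaks was 19.4% with promoter windows of 500 bp, 13.3% with 2000 bp, 15.4% with exons of every gene class removed (302 members) and 13.2% among the 1285 highest-scoring IDR peaks, and 15.6% to 18.7% with the highest peaks of 1 replicate. The median score was 50.1 among those 1285 and 46.4 among peaks supported in each replicate, which follows from how those sets are cut. Support in both replicates was 83.2% among those 1285. The share near a non-coding gene was 16.6% with exons of every class removed, which takes out summits inside such genes, 30.5% among those 1285, 30.1% within 1000 bp, and 22.1% to 31.6% with 1 replicate. Hosts with 2 or more members were 53 with members that share bases counted once, an alternative chosen after seeing the data, 14 among those 1285 and 18 among supported peaks, and list genes with a member 11 and 12, sets with fewer peaks; with 1 replicate the hosts were 43 to 62 and the list genes 30 to 34. Intron 1 held 30.6% to 30.9% of members with 1 replicate. In each set, the values here and the motif contrasts were taken over its autosomal intronic peaks only, which were 131 of those 1285. Motifs past the threshold were 3 among those 131 and 4 with either replicate. The GAGA repeat and the heptamer stayed past it in every alternative where the ratio could be computed, which for the heptamer leaves out the flank at 450 bp. The E-box CACGTG passed it with exons of every class removed (6.0-fold, exact McNemar test, adjusted p = 0.0354) and with that flank (4.33-fold, exact McNemar test, adjusted p = 0.0425). The Hox hexamer missed it without replicate 2 and among those 1285 (1.73-fold, exact McNemar test, adjusted p = 0.381). The homeodomain core also missed it with 2000-bp windows (0.3-fold, exact McNemar test, adjusted p = 0.194), with exons of every class removed (0.286-fold, 0.073) and among supported peaks (0.222-fold, 0.162), and the splice-acceptor sequence among those 1285 (0.273-fold, 0.151). Beside either replicate alone, the TATA box missed it with 2000-bp windows, exons of every class removed, supported peaks and the flank on the other side, at 0.563- to 0.636-fold (exact McNemar tests, adjusted p 0.101 to 0.444). Its contrast was 1.43-fold among those 1285, the other way (exact McNemar test, adjusted p = 0.956); the cause was not tested. No analysis paired between groups was possible because the study had 1 group. Removing the region within 20 kb of egl-5 removed no member.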
